A study of Mus musculus with 4 samples.

Results

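Astrocyte reactivity and homeostasis were described with 10 genes, matched by symbol among the 31053 genes of the deposited matrices. The 5 reactivity genes were Gfap, Vim, Cd44, Timp1 and S100a6, and the 5 homeostasis genes were Aqp4, Gja1, Slc1a2, Slc1a3 and Glul. Each symbol was found once. The genes were read in astrocytes, taken as cells with at least 1 unique molecular identifier (UMI, a tag that counts single mRNA molecules) of at least 3 of Gja1, Gjb6, Aqp4, F3 and Slc1a3 and with no other class gate passed. Gja1, Aqp4 and Slc1a3 of this gate are themselves among the 10, so their presence in the gated cells was set in part by the gate, and shares of cells with these 3 genes are given as a description.

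Single-cell RNA-seq (10x Genomics) was performed on ipsilateral brain hemispheres of male C57/BL6 mice, labelled 8 weeks old. A sham group was set beside mice at day 1, day 3 and day 7 after transient middle cerebral artery occlusion (tMCAO), a stroke model in which an artery of the brain is blocked and then reopened. The sources used here differ on the day of the sham library, day 7 in the series' own text and day 0 elsewhere in the study, and every ratio to sham rests on this library. Each group had 1 library, no genotype or drug differed between them, and the number of mice behind a library is not given in the sources used here. The tissue was digested with papain and cleared on Percoll, so only cells that survived this entered the counts. With 1 library per group no test between groups was possible, and all intervals are exact 95% intervals that cover counting error only, not the spread between mice.

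Of 59429 deposited cells, 44360 passed the cell filters, namely 7562 (sham), 13376 (day 1), 9378 (day 3) and 14044 (day 7). Wherever values stand in a row of 4, they are in the order sham, day 1, day 3, day 7. The astrocyte gate alone was passed by 67, 187, 80 and 47 of the cells, 381 in all, with median depths of 3218, 2246, 3734 and 2930 UMIs per cell. The day 7 astrocytes stayed below the minimum of 50 cells used for the other classes and are given for completeness. Libraries shared 33 to 88 cell barcodes per pair, none of them among the astrocytes. With the cells that passed a second gate as well, the astrocyte gate took 100, 411, 139 and 98 cells, and those extra cells were left out.

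Astrocytes respond to injury by a graded change called reactivity. Intermediate filament proteins such as GFAP and vimentin accumulate and a border forms around the lesion, while the resting duties of the cell include clearing glutamate, converting it to glutamine, buffering potassium and moving water at the vessel wall. Gfap and Vim encode intermediate filaments, Cd44 a hyaluronan and osteopontin receptor, Timp1 a secreted metalloproteinase inhibitor, and S100a6 a calcium-binding protein. Aqp4 encodes the water channel of the end-feet, Gja1 the gap junction protein connexin 43, Slc1a2 and Slc1a3 the glutamate transporters GLT-1 and GLAST, and Glul glutamine synthetase.

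The cells behind the gate were checked against astrocyte genes that the gate had not used. Most cells held UMIs of 3 or 4 of Aldoc, Gpr37l1, Ntsr2 and Slc4a4, but 11, 39, 8 and 7 cells held fewer than 2 of them. These 65 cells were rich in Ptgds, with 7820, 17883, 42981 and 72760 CPM (the UMIs of a gene scaled to the same total in each class and library), and in Prg4 and Igfbp6. Their low levels of the 4 identity genes follow from how they were picked. They are called here the Ptgds-rich cells, without a cell type name. The remaining 56, 148, 72 and 40 cells, 316 of 381, are called identity-positive astrocytes. This split was made after the values had been seen, and the levels and ratios to sham of the reactivity genes are given with and without the Ptgds-rich cells. Shares, contrasts between days and most list genes are given for identity-positive astrocytes alone.

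The Ptgds-rich cells held 21.5%, 30.7%, 11.4% and 16.8% of all UMIs of the gate. They held 100%, 67.0%, 81.8% and 100% of the Timp1 UMIs and 48.8%, 54.3%, 29.8% and 88.0% of the Vim UMIs. Of the S100a6 UMIs they held 4.44%, 73.5%, 18.8% and 42.9%. Of the Gfap UMIs they held 0%, 1.17%, 1.89% and 0%, and no more than 2.31% of the Aqp4, 0.521% of the Slc1a2 and 1.42% of the Slc1a3 UMIs in any library. Gja1 (3.96% to 15.5%) and Glul (2.65% to 17.3%) lay between.

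The 250 bases before the transcription start were read for 9 of the 10 genes from the RefSeq promoter table (build GRCm38.p6). Those of the 3 reactivity genes with the highest levels, and of the 2 homeostasis genes with a match to a STAT or AP-1 motif, are shown 5′ to 3′ on the strand of the gene, with motif matches in capitals.
Gfap (chr11:102897201-102897450, - strand): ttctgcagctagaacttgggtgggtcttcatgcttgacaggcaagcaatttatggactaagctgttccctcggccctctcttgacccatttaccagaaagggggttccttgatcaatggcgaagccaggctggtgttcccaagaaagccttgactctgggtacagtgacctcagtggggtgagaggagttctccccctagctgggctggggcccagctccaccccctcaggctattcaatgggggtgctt
Vim (chr2:13574061-13574310, + strand): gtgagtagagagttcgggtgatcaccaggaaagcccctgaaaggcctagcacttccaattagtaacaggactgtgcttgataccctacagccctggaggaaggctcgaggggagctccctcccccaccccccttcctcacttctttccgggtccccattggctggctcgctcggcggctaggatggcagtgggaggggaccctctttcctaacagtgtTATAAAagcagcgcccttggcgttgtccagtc
S100a6 (chr3:90612644-90612893, + strand): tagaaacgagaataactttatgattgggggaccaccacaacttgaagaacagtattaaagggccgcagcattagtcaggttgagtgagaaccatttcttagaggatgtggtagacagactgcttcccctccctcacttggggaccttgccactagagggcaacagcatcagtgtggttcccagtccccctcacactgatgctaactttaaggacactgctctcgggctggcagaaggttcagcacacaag
Gja1 (chr10:56377050-56377299, + strand): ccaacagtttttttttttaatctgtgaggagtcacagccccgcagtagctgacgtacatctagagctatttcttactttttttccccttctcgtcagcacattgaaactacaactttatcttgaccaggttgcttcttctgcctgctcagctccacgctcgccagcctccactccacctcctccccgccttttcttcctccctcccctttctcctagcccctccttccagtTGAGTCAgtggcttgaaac
Slc1a3 (chr15:8710808-8711057, - strand): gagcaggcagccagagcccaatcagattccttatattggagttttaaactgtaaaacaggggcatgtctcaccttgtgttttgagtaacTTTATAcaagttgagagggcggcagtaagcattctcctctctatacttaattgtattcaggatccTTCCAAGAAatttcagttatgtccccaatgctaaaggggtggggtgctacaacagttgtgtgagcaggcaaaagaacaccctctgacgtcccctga
Both strands were searched for TTCNNNGAA (the STAT motif), TGANTCA (AP-1) and TATAAA, which do not overlap one another here. STAT factors act downstream of cytokine receptors and AP-1 pairs Fos and Jun proteins, and both are known to act in reactive astrocytes. TTCNNNGAA was found in 1 of the 9 windows, that of Slc1a3 (TTCCAAGAA, first base at -96), and stands in 7.02% of the 32851 promoters of the table. TGANTCA was found in that of Gja1 alone (TGAGTCA, at -19), against 6.75% of all promoters. TATAAA stood in that of Vim (at -32) and, on the other strand, of Slc1a3 (TTTATA, at -161), against 12.4%. None of the 3 motifs was in the Gfap or S100a6 window, which says only that these letters are absent from these 250 bases. Of the windows shown, those of Gfap and Vim, before the RefSeq starts, lie inside the longer GENCODE genes. The end of the S100a6 window overlaps the start of its GENCODE gene.

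Gfap, the classical reactivity marker, lies on the minus strand of chr11:102887336-102900912 (GRCm38, GENCODE vM21), where a gene on the other strand, Gm26668, overlaps it. In all gated cells its level was 390 CPM in sham, 495 on day 1, 825 on day 3 and 93.8 on day 7, from 96, 257, 265 and 14 UMIs. In identity-positive astrocytes it was 497, 705, 914 and 113 CPM. Day 3 was thus highest and day 7 lowest, below sham. In order of time, the identity-positive ratios to sham were 1.42 (1.12 to 1.82), 1.84 (1.45 to 2.35) and 0.227 (0.12 to 0.399), and those of all gated cells 1.27 (0.999 to 1.62), 2.11 (1.67 to 2.70) and 0.240 (0.127 to 0.423).

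The sham level of Gfap rested on a single cell. One identity-positive sham cell held 81 of the 96 UMIs (84.4%), and 8 of 67 sham cells had any. On day 1, 46 of 187 cells had a Gfap UMI and the highest cell held 19.1% of them, on day 3 26 of 80 cells and 22.3%. Without the highest cell of each library, a comparison added after the data were seen, the identity-positive levels were 80.3 CPM in sham, 578 on day 1, 720 on day 3 and 75.8 on day 7. The ratios then became 7.19 (4.26 to 13.1), 8.97 (5.31 to 16.3) and 0.944 (0.364 to 2.30), so the excess on days 1 and 3 grew and the day 7 deficit was gone. In all gated cells the day 1 direction turned with the gate applied to 1000 thinned UMIs, where the log2 ratio was -0.72 against 0.33.

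Vim, on the plus strand of chr2:13573927-13582826, was higher on days 1 and 3 whichever cells were used. Its level in all gated cells was 167 CPM in sham, 770 on day 1, 763 on day 3 and 168 on day 7. Without the Ptgds-rich cells it was 109, 508, 605 and 24.1 CPM, with 3 UMIs on day 7. The 3 identity-positive ratios were 4.68 (2.97 to 7.74), 5.56 (3.53 to 9.22) and 0.222 (0.0424 to 0.744). Without the highest cell per library they were 5.97, 7.08 and 0.239, the last with an interval (0.0261 to 1.05) that includes 1.

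S100a6, on the plus strand of chr3:90612882-90624181, had the largest day 1 ratio of the 10 in all gated cells and a smaller one in identity-positive astrocytes. Its level was 183 CPM in sham, 1559 on day 1, 663 on day 3 and 188 on day 7 in all gated cells, with day 1 over sham at 8.52 (6.31 to 11.8). In the identity-positive astrocytes it was 222, 597, 608 and 129 CPM. There the ratios were 2.68 (1.93 to 3.82), 2.73 (1.95 to 3.91) and 0.579 (0.304 to 1.05). One sham cell held 53.5% of the identity-positive S100a6 UMIs, and without the highest cells the ratios were 4.8 (3.02 to 8.05), 3.55 (2.19 to 6.05) and 1.01. In the Ptgds-rich cells S100a6 stood at 37.9 CPM in sham and 3727 on day 1.

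Timp1, on the X chromosome (chrX:20870166-20874735, plus strand) inside the Syn1 gene of the other strand, was found in identity-positive astrocytes almost only on day 1. Their UMIs numbered 0 in sham, 34 on day 1, 2 on day 3 and 0 on day 7, in 9 of 148 day 1 cells, which makes 94.4 CPM on day 1. Set against a floor of 3 UMIs in the sham library (15.5 CPM), day 1 stood at 6.08 times the floor. The exact interval of the ratio to sham began at 4.68. In all gated cells the levels were 52.8, 198, 34.2 and 20.1 CPM and day 1 over sham was 3.75 (2.10 to 7.28). This direction turned with the gate applied to 1000 thinned UMIs, where the log2 ratio was -0.71 against 1.73, and with the identity rule and up to 6000 genes added to that gate it was 3.28. All 13 sham UMIs lay in Ptgds-rich cells.

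Cd44, on the minus strand of chr2:102811141-102901665, was too sparse to set any day apart from sham. It gave 7, 19, 3 and 2 UMIs, or 28.4, 36.6, 9.34 and 13.4 CPM. All 3 ratios to sham had intervals that included 1, with and without the Ptgds-rich cells, and on day 3 a single cell held all 3 UMIs. A difference from sham was not detectable at this depth. Day 3 over day 1 was 0.211 (0.0398 to 0.723) in identity-positive astrocytes, from 3 and 18 UMIs. There the 5 highest cells of day 1 held 88.9% of the UMIs, so no order is read from this.

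**Figure D1:**
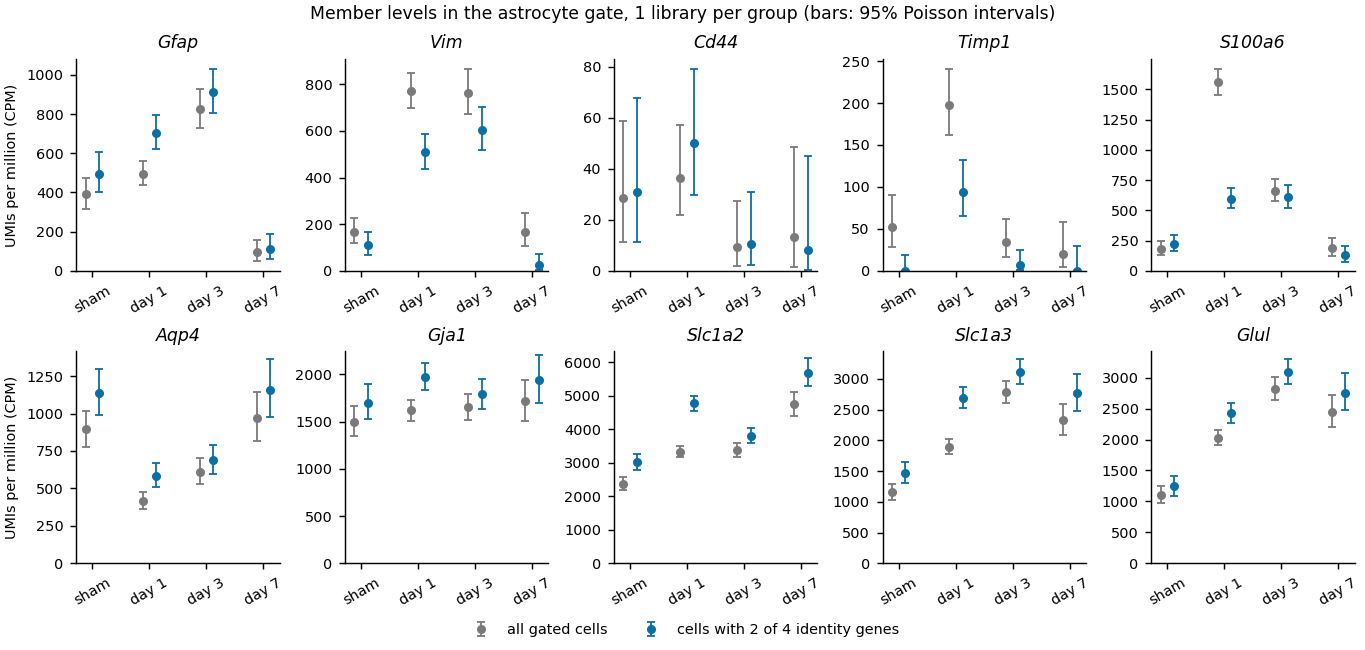
Level of each of the 10 genes in CPM (vertical axes from 0) by group, sham first and then by day, 1 library per group. Grey points are all gated cells, blue points the cells with at least 2 of the 4 identity genes, and bars are exact 95% Poisson intervals of counting error. Day 1 S100a6 is 1559 CPM with and 597 CPM without the Ptgds-rich cells, while Slc1a2, Slc1a3 and Glul lie above sham on each day in both sets.

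Among the homeostasis genes, both glutamate transporters and glutamine synthetase were higher after tMCAO, the water channel was lower on days 1 and 3, and connexin 43 stayed within 1.16-fold of sham. Slc1a3 (chr15:8634124-8710764, minus strand) stood at 1469 CPM in sham and 2694, 3118 and 2769 CPM on days 1, 3 and 7 in identity-positive astrocytes. Its ratios were 1.83 (1.60 to 2.10), 2.12 (1.85 to 2.43) and 1.88 (1.61 to 2.21). Glul (chr1:153899944-153909723, plus strand) stood at 1247, 2422, 3097 and 2761 CPM, with ratios of 1.94 (1.68 to 2.25), 2.48 (2.15 to 2.88) and 2.21 (1.87 to 2.62). These 2 genes shared an order, highest on day 3, and no interval included 1. Slc1a3 is a gate gene, and with a gate that did not use it the log2 ratios of all gated cells were 0.75, 1.59 and 0.99, against 0.71, 1.26 and 1.00 with the gate that did.

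Slc1a2 (chr2:102658659-102790784, plus strand) differed from Slc1a3 in its order, with the highest level on day 7. It stood at 3016 CPM in sham and 4774, 3814 and 5690 CPM on days 1, 3 and 7 in identity-positive astrocytes. The ratios were 1.58 (1.44 to 1.74), 1.26 (1.14 to 1.40) and 1.89 (1.69 to 2.11). In all gated cells the levels were 2373, 3325, 3378 and 4750 CPM, with ratios of 1.40, 1.42 and 2.0, so that day 1 stood above day 3 without the Ptgds-rich cells and slightly below it with them. No single cell held more than 8.77% of the identity-positive Slc1a2 UMIs of a library. When cells that also passed another gate were included, day 1 over sham changed sign on the log2 scale, from 0.48 to -0.19 for Slc1a2, and Slc1a3 moved from 0.71 to -0.03.

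Aqp4, on chromosome 18, was the 1 homeostasis gene with a lower level after tMCAO. It stood at 1138 CPM in sham, 586 on day 1, 689 on day 3 and 1159 on day 7 in identity-positive astrocytes. Day 1 over sham was 0.515 (0.424 to 0.625), day 3 over sham 0.605 (0.497 to 0.737) and day 7 over sham 1.02 (0.819 to 1.26). The sham cell that carried most of the Gfap also held 54 of the 220 Aqp4 UMIs. Without the highest cells the ratios were 0.644 (0.522 to 0.795) and 0.711 (0.572 to 0.884) on days 1 and 3, still below 1. With a gate that did not use Aqp4, the day 1 value on the log2 scale was -1.29, against -1.09 with the gate that did.

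Gja1 (chr10:56377330-56402513, plus strand) stood at 1702, 1975, 1789 and 1940 CPM in identity-positive astrocytes. Its ratios to sham were 1.16 (1.02 to 1.33), 1.05 and 1.14, and the intervals of the last 2 included 1. Gja1 is a gate gene, detected in 93.6% to 98.8% of the gated cells of a library.

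The 2 groups can be read against all genes of the same cells. Called here means at least 2-fold from sham with 10 CPM added to both levels. In all gated cells, 3 of the 10 genes were called higher on day 1 (Vim, Timp1, S100a6) and 1 lower (Aqp4), where 6.37% of 4252 genes of at least 50 CPM were called higher and 5.36% lower. On day 3, 5 were called higher (Gfap, Vim, S100a6, Slc1a3, Glul) and none lower, against 7.05% and 7.24% of all genes. On day 7, 2 were called higher (Slc1a3, Glul) and 2 lower (Gfap, Timp1), against 7.99% and 7.36%. In identity-positive astrocytes the counts were 3 higher and 0 lower on day 1 (Vim, Timp1 and S100a6; background 7.6% and 6.36%), and 4 and 0 on day 3 (Vim, S100a6, Slc1a3 and Glul; 9.51% and 6.53%). On day 7 they were 1 higher (Glul) and 3 lower (Gfap, Vim and Cd44), against 8.94% and 7.55%, where Cd44 rests on 1 UMI and lies under the 50 CPM minimum of the background.

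In group terms, the median log2 ratio of the 5 reactivity genes in all gated cells was 1.73 on day 1, 1.06 on day 3 and -0.72 on day 7. The gene at the median was Timp1, Gfap and Cd44 in turn, the last with 2 UMIs on day 7. That of the 5 homeostasis genes was 0.48, 0.51 and 1.00, with Slc1a2 at the median each time. The median over all genes tested was 0.06, 0.03 and 0.08. In identity-positive astrocytes the reactivity median was 1.39, 0.87 and -1.19 and the homeostasis median 0.66, 0.34 and 0.91. Each median is the value of 1 gene and does not stand for the group: Gfap was highest on day 3, the day 7 ratios of Vim and S100a6 in all gated cells were 1.01 and 1.03, and Slc1a3 and Glul were highest on day 3. With the gate applied to 1000 thinned UMIs the day 1 reactivity median was -0.71.

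**Figure D2:**
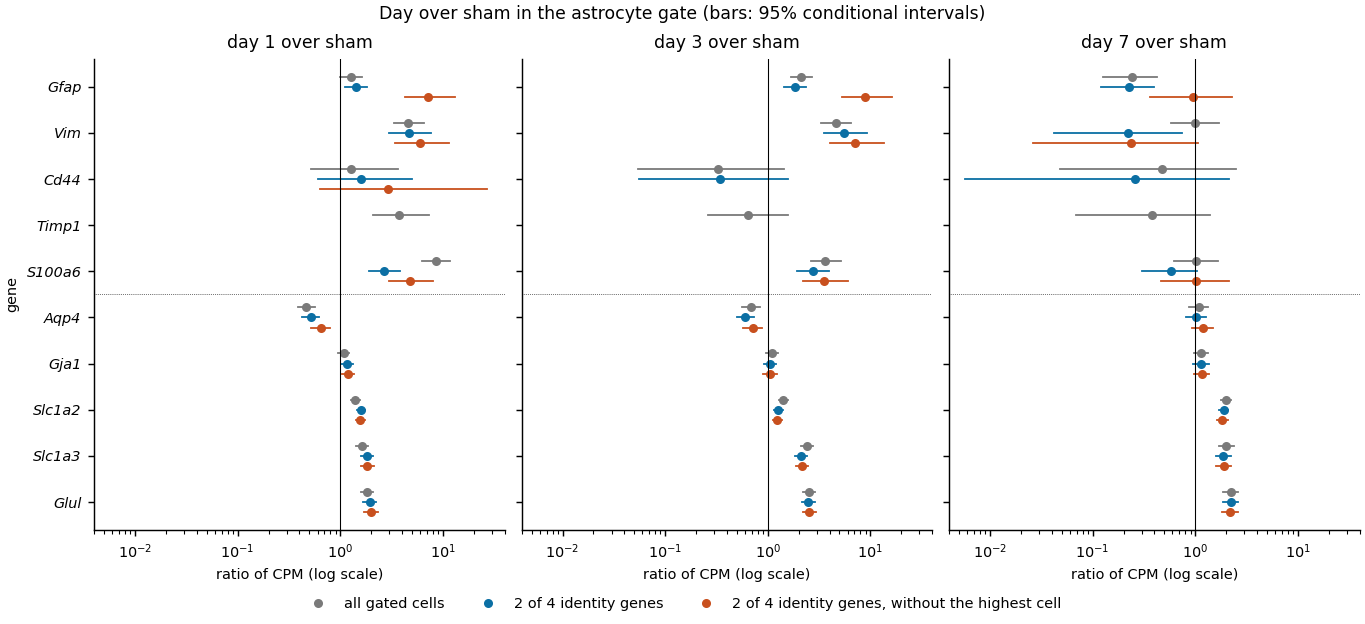
Ratio of CPM to sham (horizontal log axes) for the 10 genes on day 1, day 3 and day 7, in all gated cells (grey), identity-positive astrocytes (blue) and the latter without each library's highest cell for the gene (orange), with exact 95% conditional intervals. Ratios without a UMI in sham or on the day are not drawn, and the dotted line parts reactivity from homeostasis genes. Gfap on day 3 moves from 1.84 to 8.97 without the highest cells, while Glul stays near 2.5.

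The 3 tMCAO libraries were also compared with one another in identity-positive astrocytes. Day 7 over day 3 was 0.123 (0.0665 to 0.211) for Gfap, 0.0399 (0.00816 to 0.119) for Vim and 0.212 (0.118 to 0.354) for S100a6. For Aqp4 it was 1.68 (1.35 to 2.10) and for Slc1a2 1.49 (1.36 to 1.64). Slc1a3 and Glul differed by little, at 0.888 (0.782 to 1.01) and 0.891 (0.785 to 1.01). In summed UMIs the filament genes and S100a6 were thus far lower on day 7 than on day 3, a contrast that does not use the sham library. The day 3 side rested on few cells. There the 5 highest of 72 cells held 73.5% of the Gfap, 51.7% of the Vim and 66.5% of the S100a6 UMIs, and day 7 had 40 cells. For each of these genes the shares of cells with a UMI, given below, had overlapping intervals on the 2 days.

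Whether a level came from many cells or few was read from the share of cells with a UMI, after each cell had been thinned to 1000 UMIs. Among identity-positive astrocytes, Gfap was found in 7.55% of sham, 20.3% of day 1, 19.4% of day 3 and 8.11% of day 7 cells. Vim was found in 15.1%, 18.8%, 19.4% and 2.70%, and S100a6 in 9.43%, 19.5%, 26.4% and 16.2%. On days 1 and 3 the binomial intervals of all 3 genes overlapped those of sham. On day 1 the 5 highest cells held 49.2% of the Gfap, 48.6% of the Vim and 55.8% of the S100a6 UMIs. Timp1 was found in 0 of 53 sham cells, 3.76% of day 1 and 1.39% of day 3 cells, and in 0 of 37 day 7 cells.

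Glul, which the gate did not use, and Slc1a3, which it did, had thinned shares above sham on each day. Slc1a3 was found in 64.2%, 86.5%, 84.7% and 91.9% of the cells, and Glul in 64.2%, 86.5%, 90.3% and 86.5%. The day 1 and day 3 intervals of Glul (79.5% to 91.8% and 81.0% to 96.0%) did not overlap that of sham (49.8% to 76.9%). That of day 7 (71.2% to 95.5%) did. For Slc1a3 the day 3 interval (74.3% to 92.1%) overlapped that of sham, and those of days 1 and 7 did not. Aqp4 was found in 54.7%, 39.8%, 37.5% and 62.2%, Slc1a2 in 79.2%, 90.2%, 70.8% and 94.6%, and Gja1 in 84.9%, 83.5%, 75.0% and 81.1%. The share of Slc1a2 on day 3, and that of Gja1 on each day, lay below sham although their levels lay above it, so no order is read from them. Before thinning, Gfap was found in 14.3%, 29.7%, 34.7% and 22.5% of the cells.

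Droplets also take up free RNA, so endothelial cells, which should lack Gfap, were read in the same way. They held a Gfap UMI in 0.0974%, 1.28%, 1.24% and 0.206% of cells after thinning, at median depths of 2949, 1908, 2246 and 2041 UMIs before thinning. Their Timp1 shares of 1.28% on day 1 and 1.49% on day 3 stood beside 3.76% (1.23% to 8.56%) and 1.39% in astrocytes, so neither astrocyte share is read as above the endothelial one. Their S100a6 shares were 1.66%, 14.7%, 4.33% and 2.34%, and on day 1 the astrocyte interval (13.2% to 27.3%) included the endothelial share. Their shares for Aqp4 were 0.0730% to 0.365% and for Slc1a3 0.413% to 0.791%. The astrocyte share of Gfap lay above this in each library, while those of Aqp4 and Slc1a3 were set in part by the gate. Vim (51.5% to 71.2%) and Glul (49.8% to 55.1%) are expressed by endothelial cells, so their background from free RNA could not be read in this way.

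**Figure D3:**
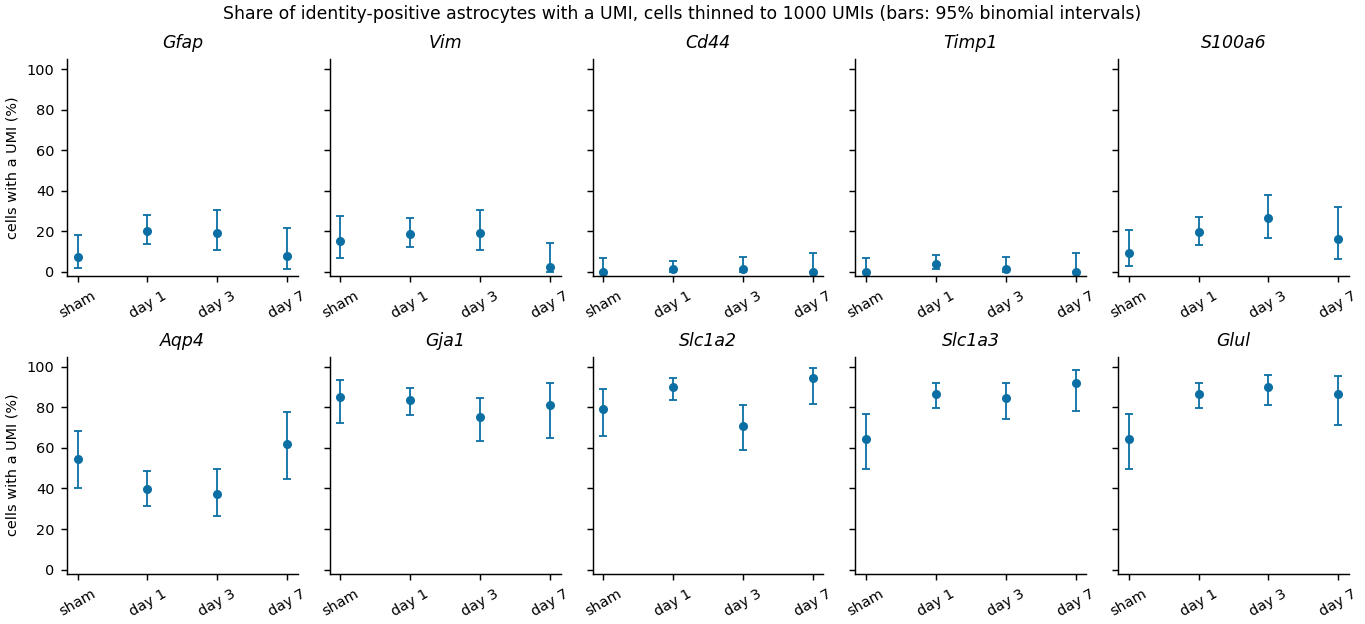
Share of identity-positive astrocytes (%, vertical axes) with at least 1 UMI of each gene in the 4 libraries, after thinning each cell to 1000 UMIs and leaving out shallower cells, with exact 95% binomial intervals. Slc1a3 and Glul stand at 64.2% in sham and above 84% on days 1, 3 and 7, whereas Gfap, Vim and S100a6 stay below 30%.

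On days 1 and 3, pairs among Gfap, Vim and S100a6 tended to be found in the same identity-positive cells. Sham and day 7 held 0 or 1 cell with both genes of such a pair. Pairs with Cd44 or Timp1 were not counted, and no difference was tested. On day 1, Vim was found in 13 of the 27 thinned cells with a Gfap UMI (48.1%) and in 11.3% of the cells without. On day 3 it was found in 8 of 14 (57.1%) against 10.3%. S100a6 was found in 36.0% of Vim-positive and 15.7% of Vim-negative cells on day 1, and in 64.3% and 17.2% on day 3. Slc1a2 was found in 76.0% of Vim-positive and 93.5% of Vim-negative cells on day 1 and in 50% and 75.9% on day 3, but on day 3 in 78.6% of Gfap-positive and 69.0% of Gfap-negative cells. Aqp4 was found in 37.0% of Gfap-positive and 40.6% of Gfap-negative cells on day 1, and in 78.6% and 27.6% on day 3. Cells of 1 library are not replicates, and these shares rest on 14 to 27 positive cells and are given as a description.

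**Figure D4:**
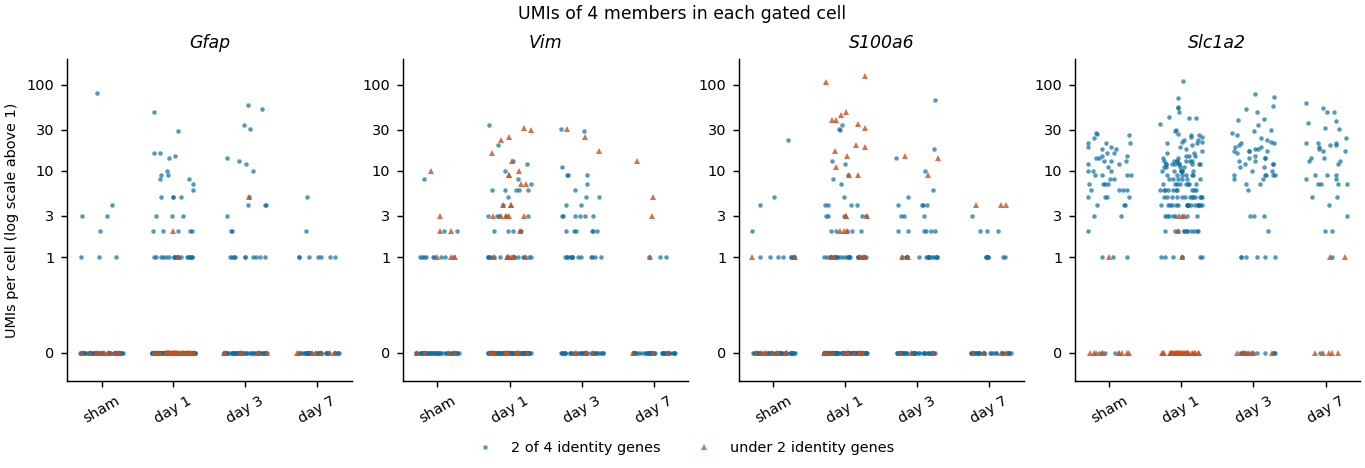
UMIs per gated cell (vertical axes, log scale above 1) of Gfap, Vim, S100a6 and Slc1a2 in the 4 libraries, with horizontal scatter added for view. Blue circles are identity-positive astrocytes and orange triangles the Ptgds-rich cells. In sham 1 cell holds 81 Gfap UMIs, on day 1 the highest S100a6 counts lie in Ptgds-rich cells, and Slc1a2 is spread over most identity-positive cells.

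Across the other marker-gated classes with at least 50 cells, the 10 genes, as gated, fell into those nearly private to astrocytes and those shared. Cells of another class that also passed the astrocyte gate were left out. On day 1 these were 77 of 206 ependymal-gated and 95 of 208 fibroblast-gated cells. Low levels of the gate genes Aqp4, Gja1 and Slc1a3 outside astrocytes were thus set in part by the gate and are given as a description. Gfap in 12 other classes of day 1 stayed at or below 37.0 CPM except in ependymal cells, which line the ventricles, with 372 CPM (306 to 447), an interval that overlapped that of all gated day 1 astrocytes (436 to 559) but not that of the identity-positive ones (621 to 798). In the other libraries no class exceeded 19.9 CPM. Aqp4 outside astrocytes was highest in day 1 ependymal cells as well, with 286 CPM. Slc1a2 outside astrocytes was highest in day 1 mature neurons, with 478 CPM, followed by oligodendrocyte progenitors with 353 CPM. Slc1a3 outside astrocytes was highest in day 1 fibroblasts, with 335 CPM (268 to 414), and was found in microglia at 161, 97.7, 111 and 218 CPM.

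Vim, S100a6 and Glul were shared genes. Vim was highest in vascular smooth muscle cells in sham (3804 CPM), on day 3 (4278) and on day 7 (4148), and on day 1 those cells (3470 CPM) and ependymal cells (3631 CPM) had overlapping intervals. Glul was highest in oligodendrocytes in sham (1827 CPM) and in astrocytes on days 1 and 3 (2030 and 2817 CPM). In sham, the Glul intervals of microglia (1215 CPM), astrocytes (1109 CPM) and endothelial cells (973 CPM) overlapped from one to the next. S100a6 on day 1 reached 2927 CPM in ependymal cells and 2187 CPM in fibroblasts, above the 1559 CPM of all gated astrocytes.

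A higher S100a6 level on day 1 was also found outside astrocytes. S100a6 stood at 27.7 CPM in sham and 497 on day 1 in endothelial cells, a ratio of 17.9 (16.3 to 19.8). In vascular smooth muscle cells it stood at 140 and 1138 CPM, a ratio of 8.15 (7.50 to 8.88), and in pericytes at 6.48 and 191 CPM, a ratio of 29.5 (11.3 to 109.8). In oligodendrocytes the ratio was 2.86 (2.56 to 3.20), with an interval that overlapped that of identity-positive astrocytes (1.93 to 3.82). The astrocyte ratios in all gated cells (8.52) and without the highest cells (4.8) had intervals that overlapped that of smooth muscle cells. Vim in pericytes stood at 170 CPM in sham and 683 on day 1, a ratio of 4.01 (3.25 to 5.00), and in endothelial cells at 1464 and 2131 CPM, a ratio of 1.46 (1.43 to 1.48). In vascular smooth muscle cells the day 1 ratio of Vim was below 1, at 0.912 (0.890 to 0.935). In microglia it was 6.41 (3.06 to 16.1), from 7 sham UMIs, and on day 3 it was 4.24 (1.97 to 10.9). The day 1 ratio of Vim was 2.08 (1.66 to 2.63) in oligodendrocytes and 1.12 (0.660 to 2.04) in choroid plexus cells. Timp1 was also higher on day 1 outside astrocytes, with a ratio of 10.7 (7.00 to 16.9) in endothelial cells. It was 26.3 (9.75 to 99.6) in vascular smooth muscle cells and 26.7 (4.47 to 1086) in pericytes, from 4 and 1 sham UMIs. Timp1 on day 1 was highest in fibroblasts, with 556 CPM, and Cd44 on day 7 in T or NK cells, with 117 CPM.

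**Figure D5:**
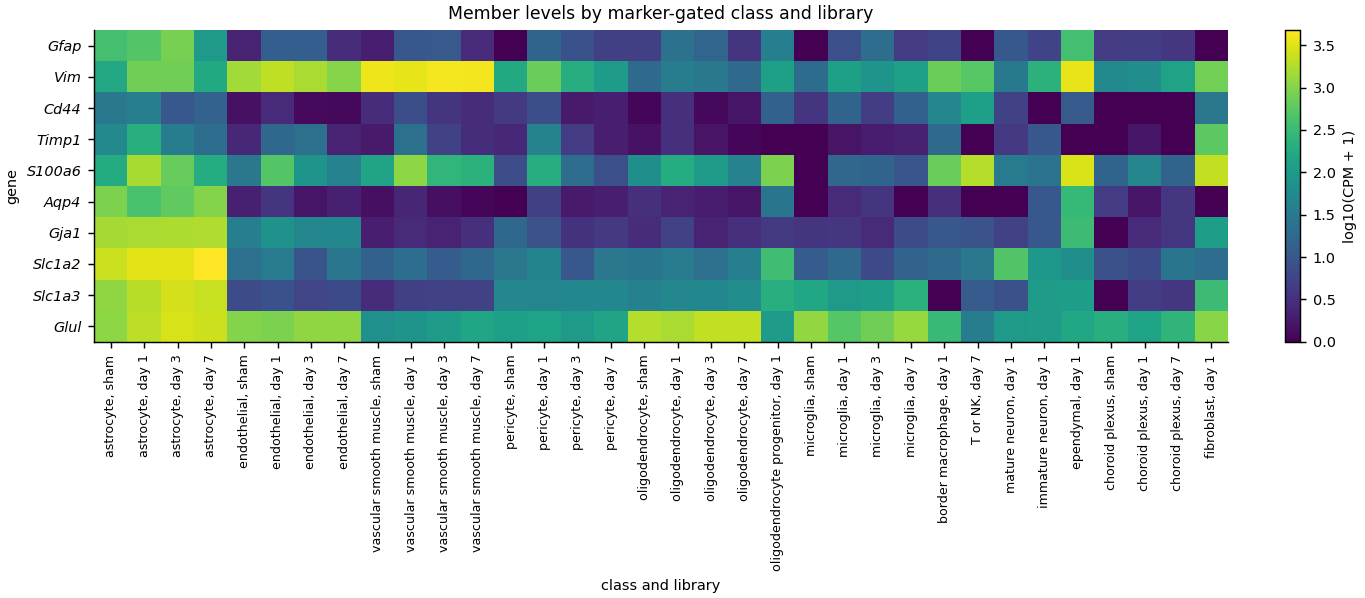
Levels of the 10 genes (rows) in each marker-gated class and library (columns), as log10(CPM + 1) on the colour scale, for classes with at least 50 cells and for the 47 day 7 astrocytes. Gfap, Aqp4 and Slc1a2 are bright in the astrocyte columns and in few others, whereas Vim is brightest in vascular smooth muscle cells and Glul is bright in oligodendrocytes, endothelial cells and microglia. Aqp4, Gja1 and Slc1a3 are gate genes, and cells of other classes that also passed the astrocyte gate were left out, so these contrasts were set in part by the gate.

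The patterns of Gfap and Slc1a2 were compared with those of all other genes over 33 class and library profiles, leaving out the day 7 astrocytes. The genes most like Gfap by Pearson's r were Slc25a18 (0.96), Aqp4 (0.96), Mlc1 (0.95), Rfx4 (0.94) and Sfxn5 (0.93). Those most like Slc1a2 were Trim9 (0.96), Kcnn2 (0.95), Rgs20 (0.95), Baalc (0.95) and Gabrg1 (0.95). The profiles share libraries and the comparison ran over 6547 genes, so these values are a description. Most profiles are of other classes, so r reads the contrast between classes more than changes between libraries. Gfap and Aqp4 moved apart in identity-positive astrocytes, with day 1 ratios to sham of 1.42 and 0.515.

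Other genes of the reactive response were read from lists of known markers. Counts of calls in these lists stand against the shares of all genes in identity-positive astrocytes given above, 7.6%, 9.51% and 8.94% called higher and 6.36%, 6.53% and 7.55% lower on days 1, 3 and 7. These shares used the same minimum of 50 CPM in sham or on the day. A gene under 50 CPM in sham entered a count only through the day, which favours a higher call. Counts of higher calls are therefore a description. Of the 9 pan-reactive genes, 3 reached 50 CPM on day 1 or in sham in identity-positive astrocytes, and all 3 were called higher. Serpina3n and Lcn2 had 0 sham UMIs and entered only through day 1, so their calls followed from the minimum. Hspb1 alone reached it in sham. On day 3, 1 of 2 genes that reached 50 CPM was called higher, again Serpina3n. On day 7 the 1 such gene was called lower. Serpina3n, a secreted serine protease inhibitor, gave 0, 100, 72 and 1 UMIs in sham and on days 1, 3 and 7. Serpina3n stood at 17.9 times the sham floor on day 1 and 16.3 times on day 3. It was found in 34 of 148 day 1 cells, and the highest cell held 16% of its UMIs. Lcn2, the iron-scavenging lipocalin, gave 0, 53, 7 and 0 UMIs and stood at 9.48 times the sham floor on day 1. Hspb1, a small heat shock protein, stood at 51.7, 242, 24.6 and 0 CPM, although 1 day 1 cell held 51.7% of its UMIs. Cp, the copper carrier ceruloplasmin, stood at 8.13 and 57.7 CPM in sham and on day 1 in all gated cells but gave 3 UMIs in identity-positive astrocytes of day 1.

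The lists labelled A1 and A2 in the field, after 2 proposed reactive states, gave few genes with enough UMIs. In identity-positive astrocytes 2 of 12 A1 genes and 3 of 12 A2 genes reached 50 CPM on day 1 or in sham, of which 2 and 2 were called higher. Srgn, Tm4sf1 and Tgm1 entered only through day 1, and Fbln5 only through day 7, so their calls followed from the minimum. S100a10, which reached it in sham, was not called. On day 3, 1 of 1 A1 and 0 of 1 A2 genes were called higher, and on day 7, 1 of 2 and 0 of 1. Srgn, a secretory granule proteoglycan, stood at 10.3 and 72.2 CPM in sham and on day 1, with 69.2% of its day 1 UMIs in 1 cell. Tm4sf1 stood at 10.3 and 136 CPM with 69.4% in 1 cell, and Tgm1, a transglutaminase, at 0 and 72.2 CPM with 61.5% in 1 cell. S100a10, the annexin A2 partner, stood at 82.8, 156, 63.3 and 64.4 CPM, with a day 1 ratio of 1.88 (1.06 to 3.51). Fbln5, an elastic fibre protein, was highest on day 7, at 121 CPM from 15 UMIs, against 5.17 CPM in sham. Serping1, the C1 inhibitor, stood at 65.0 and 125 CPM and Fkbp5, a glucocorticoid-responsive chaperone, at 44.7 and 135 CPM in sham and on day 1 of all gated cells, but at 5.17 and 19.4 CPM and at 10.3 and 36.1 CPM without the Ptgds-rich cells.

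Among 10 scar formation and signalling genes, 5, 5 and 2 reached 50 CPM in sham or on days 1, 3 and 7 in identity-positive astrocytes. Of these, 3 were called higher and 1 lower on day 1, and 3 higher on day 3. Socs3 on both days and Lgals3 on day 3 had 0 sham UMIs and entered only through the day. On day 7, 0 were called higher and 1 lower. Fabp7, the brain fatty acid binding protein of radial glia and immature astrocytes, stood at 973 CPM in sham and 314, 4967 and 121 CPM on days 1, 3 and 7. One sham cell held 68.6% of the sham Fabp7 UMIs, whereas on day 3 43 of 72 cells had it and the highest held 12.2%. Socs3, the feedback inhibitor of STAT3 signalling, gave 0, 29, 20 and 1 UMIs. It stood at 5.19 times the sham floor on day 1 and 4.53 times on day 3, with 55.2% and 50% of the UMIs of those days in 1 cell. Lgals3, the carbohydrate-binding galectin 3, gave 0, 6, 16 and 0 UMIs, with 62.5% of those of day 3 in 1 cell. Thbs1, the matrix protein thrombospondin 1, gave 15 UMIs in sham in all gated cells and none without the Ptgds-rich cells.

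Genes with duties like those of the homeostasis genes were read in the same way. Of 10 genes of ion and water balance, none was called on any day in all gated cells, and 1, Kcnj16, a potassium channel subunit, was called higher on day 1 in identity-positive astrocytes, from 41.4 to 94.4 CPM. Slc4a4, the bicarbonate cotransporter, is an identity gene that helped to pick the identity-positive cells, so its values are given for all gated cells, at 1495, 1089, 1127 and 2358 CPM. Dtna, part of the dystrophin complex that anchors the water channel, had a day 3 ratio of 0.955 (0.686 to 1.34). Of 9 transmitter uptake and glutamine genes, 9, 8 and 8 reached 50 CPM in sham or on days 1, 3 and 7 in identity-positive astrocytes. None was called higher on any day, and 0, 1 and 2 were called lower on days 1, 3 and 7. Slc6a11, the GABA transporter GAT-3, stood at 1449, 1025, 580 and 1859 CPM, with a day 3 ratio of 0.4 (0.328 to 0.487). Slc38a1, a glutamine transporter, stood at 150, 72.2, 70.3 and 16.1 CPM, but 1 sham cell held 69.0% of its sham UMIs. Got1, an aspartate aminotransferase, had intervals that included 1 on each day. On day 3, when Slc1a2, Slc1a3 and Glul were above sham, Slc6a11 was below it. On day 7 Slc6a11 was above sham, at 1.28 (1.07 to 1.53).

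Of 15 astrocyte identity genes, 1 was called higher on day 1, 2 on day 3 and 1 on day 7 in identity-positive astrocytes, and none lower, shares near those of all genes called higher. Apoe, the brain's main lipid carrier, stood at 21243, 22297, 44236 and 23340 CPM, a day 3 ratio of 2.08 (2.01 to 2.16), and was found in each of the 72 day 3 cells. Clu, the secreted chaperone clusterin, stood at 3006, 5235, 5582 and 5231 CPM, and Cst3, the protease inhibitor cystatin C, at 15459, 18753, 24208 and 20097 CPM. Sparcl1, a matrix protein that promotes synapse formation, stood at 5168, 2925, 4123 and 6133 CPM, an order like that of Aqp4.

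The families of single members were set beside them. Of 8 other metalloproteinases and inhibitors, 4 reached 50 CPM in sham or on the day in identity-positive astrocytes, for each day. None was called higher on any day, and 1, 0 and 1 were called lower on days 1, 3 and 7. Timp4, the inhibitor of resting astrocytes, stood at 491, 517, 334 and 918 CPM, a day 7 ratio of 1.87 (1.41 to 2.48), and Timp3 at 455, 328, 506 and 579 CPM. Timp2 stood at 103, 83.3, 102 and 32.2 CPM, and Mmp14, a membrane metalloproteinase, at 77.6, 33.3, 73.8 and 96.6 CPM. Of 8 other S100 genes, 7 reached 50 CPM in sham or on day 1, and 4 were called higher. S100a8, S100a9 and S100a11 had 0 sham UMIs and entered only through day 1. On days 3 and 7, 4 reached it and none was called. S100a13 stood at 197, 469, 355 and 322 CPM with a day 1 ratio of 2.39 (1.67 to 3.49), and S100a11 gave 0, 74, 3 and 1 UMIs. S100a8 and S100a9, which are abundant in neutrophils, gave 280 and 235 UMIs on day 1, of which 1 cell held 99.6% and 100%. Spp1, which encodes the CD44 ligand osteopontin, gave 0, 122, 0 and 0 UMIs, with 89.3% of those of day 1 in 1 cell.

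Genes that mark brain regions also differed between the libraries. Agt, which marks astrocytes outside the telencephalon, stood at 1816, 1430, 548 and 1835 CPM in identity-positive astrocytes, and the glycine transporter gene Slc6a9 at 367, 242, 38.7 and 282 CPM. On day 3 their ratios were 0.302 (0.248 to 0.366) and 0.105 (0.0503 to 0.200). The telencephalic genes Mfge8 (1299, 1436, 2390 and 1127 CPM) and Lhx2 (77.6, 142, 179 and 72.4 CPM) were highest on day 3. Day 3 was also the library with the highest Gfap, Vim, Slc1a3, Glul and Apoe. The part of the regions sampled in these levels was not tested.

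Stem and cycling genes were sparse, with Thbs4 at 2, 0, 18 and 7 UMIs, all 18 of day 3 in 1 cell, and Egfr, a growth factor receptor, at 82.8, 106, 49.2 and 185 CPM. Markers of other cells that moved with the groups are given for the same cells. The 3 myelin genes summed to 585, 192, 2032 and 290 CPM in sham and on days 1, 3 and 7. The 3 endothelial genes (Itm2a, Ly6c1 and Ly6a) summed to 135, 328, 120 and 88.5 CPM, and the 3 smooth muscle genes, Myl9 among them, to 98.3, 36.1, 98.4 and 48.3 CPM. The 3 microglial genes summed to 36.2, 133, 148 and 40.2 CPM, with C1qa at 0 in sham. Ttr, the choroid plexus carrier, stood at 1516, 2661, 1487 and 934 CPM, and Enpp2 at 51.7, 80.5, 158 and 48.3 CPM. The myelin and microglial sums were highest on day 3, as Gfap and Vim were, and their part in the results was not tested. The 3 haemoglobin genes gave 8290 UMIs in sham in all gated cells, 99.3% of them in 1 cell, and 5 to 33 UMIs in each other library.

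Immediate-early genes answer to stress and to tissue digestion. Of 8 such genes, 7, 6 and 4 reached 50 CPM in sham or on days 1, 3 and 7 in identity-positive astrocytes. Called higher were 5, 6 and 1 of them, and called lower 0, 0 and 1. The single calls of day 7 are 1 gene in each direction, and nothing is read from them. The sum of the 8 genes was 502, 1319, 1979 and 467 CPM, the order in which Gfap and Vim stood. Junb stood at 82.8, 242, 453 and 16.1 CPM, Ier2 at 36.2, 86.1, 176 and 24.1 CPM, and Dusp1, a phosphatase, at 20.7, 144, 66.8 and 96.6 CPM. Atf3 gave 0, 23, 7 and 0 UMIs. Ier2, Dusp1 and Atf3 lay under 50 CPM in sham and entered the counts only through a later day. On day 3 a single cell held 45.0% of the Junb and 66.0% of the Ier2 UMIs. In all gated cells the sum was 2024, 3581, 1943 and 4777 CPM, highest on day 7, when 1 cell held 62.3% of the Junb and 74.2% of the Dusp1 UMIs. The part of stress during digestion in the levels of the 10 genes was not tested.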

How the data were processed

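Single-cell RNA-seq libraries of 1 sham and 3 tMCAO groups were used. Raw UMI counts of each gene were deposited for every called cell, as whole numbers with no normalization. The submitters' processing notes name Cell Ranger 3.0.1, Seurat 4.1.2 and a human build (GRCh38), whereas the file headers name Cell Ranger 4.0.0. The identifiers are of mouse genes, and 30934 of 31053 (99.6%) matched GENCODE vM21 (GRCm38), which gave the coordinates. Whether counting used strand is not given in the sources used here, so overlapping genes of the other strand cannot be told apart from the members. Libraries held 69392755 to 104023002 UMIs.

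Cells outside 200 to 3000 detected genes, or above 10% mitochondrial UMIs, were removed. A cell took 1 of 17 classes when it held UMIs of at least 3 markers of that class and passed no other gate. Identity-positive astrocytes held at least 2 of 4 further genes. Raw UMIs were summed per class and library and given as CPM with exact Poisson intervals; ratios have exact conditional binomial intervals and shares exact Clopper-Pearson intervals (95%). Log2 ratios were computed with 10 CPM added. Shares were read after thinning to 1000 UMIs. No p-value was computed. Scrublet (scanpy 1.11.5) called 20, 582, 4 and 2 doublets (sham first, then by day), under 0.5% in 3 of them, where it is taken not to have worked; doublets were kept. Python 3.11.15, numpy 2.4.6, scipy 1.17.1, pandas 2.3.3 and matplotlib 3.10.9 were used, and the calculations were tested on simulated counts.

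The named genes are the 10 members, the measured genes of each list with the 4 largest log2 ratios on any day, and the 5 genes most like Gfap and Slc1a2; a few list genes that this rule names are not reported here. The members, lists and rules were chosen with earlier results of these data known. Of the alternatives, 14 were planned and 6 were added after seeing the data.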

Additional observations from a re-analysis of the deposited data

Results flagged for a closer look

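Gfap in the astrocyte gate moved in opposite directions on 2 days, with a day 3 ratio to sham of 2.11 and a day 7 ratio to sham of 0.24. The difference between the 2 days' effects was not tested, since each group has 1 library and both use the same sham library. The sham level rested on 1 cell with 81 of 96 Gfap UMIs, and the day 7 level on 14 UMIs in 47 cells.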

How the results depend on the processing

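No paired analysis was possible because each group has 1 library, and for the same reason no replicate could be left out. Each of the 30 log2 ratios (10 genes, 3 days) was recomputed under 18 settings, and the 9 ratios of Aqp4, Gja1 and Slc1a3 also with a gate that left out the gene itself, which gave 549 values, of which 398 moved by less than the counting interval, 146 moved by more and 5 turned the direction of a ratio called at least 2-fold. Of the 30 ratios, 16 had 1 sign in every setting. The 5 turned values were for Gfap on day 7 and Timp1 on days 1 and 7. Gfap on day 7 became 0.54 with a mitochondrial limit of 5% and 0.000138 without the highest cell. Timp1 on day 1 became -0.71 with the gate applied to 1000 thinned UMIs. Timp1 on day 7 became 0.0724 with each cell counted once. It became 1.32 without the Prg4, Nov or Slc47a1 cells, those that held at least 2 of these 3 genes. The cause of these turns was not tested. Vim ranged from 0.87 to 3.14 on day 1 and 1.21 to 3.02 on day 3, S100a6 from 1.39 to 3.97 and 1.05 to 3.40, and Aqp4 from -1.29 to -0.63 and -0.81 to -0.13, all without a change of sign, as for Glul on each day. Gfap on day 1, not called, ranged from -0.72 (thinned gate) to 2.70. The reactivity median of day 1 (1.73) became -0.71 with the gate on thinned UMIs, 2.73 without the Prg4, Nov or Slc47a1 cells and 3.14 with the gate on thinned UMIs, up to 6000 genes and the identity rule. On day 3 (1.06) it became 0.38 with at least 4 of 5 markers, 1.5 with a gate of non-member genes, 1.57 with the 5% mitochondrial limit, 1.60 without the Prg4, Nov or Slc47a1 cells, 2.23 with thinned gate, 6000 genes and identity rule, 1.81 with each cell counted once, 2.22 without the highest cell and 1.74 with the identity rule and without the highest cell. The homeostasis median of day 1 (0.48) became -0.19 with all cells of the gate, 0.63 with the thinned gate, 0.66 with the identity rule, 0.65 with this and without the highest cell, 0.24 with thinned gate, 6000 genes and identity rule, 0.14 with each cell counted once and 0.34 with median-ratio size factors. On day 3 (0.51) it became, in the same settings where they apply, 0.31 (all cells of the gate), 0.90 (thinned gate), 0.34 (identity rule), 0.31 (identity rule without the highest cell) and 0.16 (each cell once), and further 0.79 with a gate of non-member genes, 0.25 without the Prg4, Nov or Slc47a1 cells and 0.29 with the identity rule in cells not ependymal or fibroblast. On day 7 (1.00) it became 0.38 with all cells of the gate, 0.68 with 4 of 5 markers, 0.83 with a gate of non-member genes, 0.75 with up to 6000 genes, 1.17 with the 5% mitochondrial limit, 0.81 without the Prg4, Nov or Slc47a1 cells, 0.32 with thinned gate, 6000 genes and identity rule, 0.57 with the identity rule in cells not ependymal or fibroblast and 0.42 with each cell counted once. The identity rules, the Prg4 rule and the removal of the highest cell were chosen after seeing the data. Depth limits Cd44 and Timp1, with 2 to 19 and 3 to 103 UMIs per library, and 67, 187, 80 and 47 cells limit the shares.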
